A study of Mus musculus with 18 samples.

Results

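The nuclear genes for the subunits of mitochondrial complex I were followed in mouse cardiac ventricles after deletion of the gene for serum response factor (SRF), with and without phenylephrine (PE). A list of 35 subunit genes was matched to the platform annotation of an Affymetrix mouse array, and each gene was read by the probe set with the highest mean signal among those annotated to that gene alone. Of the 35 genes, 33 had such a probe set and 32 were measured above the limit for low signals, among 12616 genes measured in all. Ndufb4 had a probe set of its own with a mean below that limit. Ndufs6 and Ndufa11 were represented only by probe sets annotated to several genes, and no value is given for these 3 genes.

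Complex I, or NADH dehydrogenase, is the entry point of the respiratory chain for electrons from NADH: a flavin and a chain of iron-sulfur clusters in its matrix arm pass them to ubiquinone, and its membrane arm pumps protons. Core subunits carry out the catalysis, and accessory subunits surround and stabilise them. The core subunits of the membrane arm are encoded by mitochondrial DNA and are not in the list. Cardiac muscle depends on this enzyme because most of its ATP comes from oxidation of fatty acids and other fuels that deliver NADH, while SRF is a transcription factor known for binding CArG boxes of muscle and cytoskeletal genes.

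The 18 arrays each held total RNA from the ventricles of 1 male mouse, given as 10 weeks old and as strain CR7BL6. SRFHKO mutants and their SRF-flex2neo littermate controls all received 0.7 mg tamoxifen by intraperitoneal injection on 3 days. There were 2 control and 4 SRFHKO hearts at day 8, and at day 25 there were 3 control and 3 SRFHKO hearts without PE and 3 control and 3 SRFHKO hearts with PE, which osmotic minipumps delivered at 80 mg per kg per day from day 10 to day 25. The labels call the hearts biological replicates. The driver and cell type of the recombinase were not given in the sources used here, and whole ventricle holds many cell types, so fewer cells of a type and less RNA per cell cannot be told apart.

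No Srf probe set passed the test between genotypes. The one of highest mean differed by 0.23 ± 0.20 (log2, SE) at day 8, by -0.06 ± 0.19 at day 25 and by -0.20 ± 0.19 with PE (limma adjusted p = 0.80 at day 8), with overlapping groups at day 25. The other differed by 0.27 at day 8, by -0.54 ± 0.19 at day 25 (limma adjusted p = 0.14), where the controls at 6.09, 5.98 and 6.12 lay above the mutants at 5.85, 5.02 and 5.68, and by 0.01 with PE. Whether either covers deleted sequence was not given in the sources used here, so they check nothing about the labels. Esr1, the estrogen receptor gene, was picked after its values were seen because it had the highest difference of all genes in each genotype comparison; its log2 level lay between 2.03 and 4.51 in the 8 control hearts and between 6.18 and 10.5 in the 10 SRFHKO hearts. All 16 cardiomyocyte markers were measured and none of the 8 lymphocyte markers was. Before scaling, the arrays of day 8 had mean signals of 109.6 to 146.9 and those of day 25 of 46.3 to 84.9, so day and array brightness cannot be told apart. At day 25 the SRFHKO arrays were brighter than the controls without overlap, at 70.7 to 83.0 against 46.3 to 68.0 without PE and at 75.4 to 84.9 against 52.2 to 74.8 with PE. The Gapdh 3′ to 5′ ratio, a sign of RNA integrity, ran from 0.820 to 0.835 in mutants and from 0.868 to 0.945 in controls of day 25 without PE. The genotypes were also apart at day 8, at 0.850 to 0.936 in mutants and 1.006 to 1.022 in controls, while the PE groups overlapped. The Actb 3′ to 5′ ratio did not separate the genotypes. It ran from 1.83 to 2.02 in mutants and from 2.00 to 2.03 in controls of day 25 without PE. At day 8 it ran from 1.52 to 2.12 in mutants and from 2.07 to 2.52 in controls.

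At day 25 without PE, complex I subunit genes lay lower in SRFHKO than in control hearts. The log2 difference was below 0 for 31 of the 32 genes, against 55.8% of all genes, with a median of -0.28 against -0.05 over all genes; on signals left unscaled the median turned to 0.13, where that of all genes was 0.35. Those that fell were 7 genes, Ndufs7, Ndufv1, Ndufv2, Ndufv3, Ndufa6, Ndufa9 and Ndufa12, and none rose. These 7 of 32 stood beside a background of 1.2% of all genes called lower and 1.28% called higher by the same rule, an adjusted p under 0.05 in limma over 12616 genes. The groups did not overlap for 24 of the 32 genes, with SRFHKO lower, against 12.6% of all genes, and none lay higher without overlap, against 9.21%. Bright genes as a whole lay lower too: of 365 other genes with a mean at or above that of the dimmest member, 6.85% were called lower, 117 lay lower without overlap, 235 were below 0 and the median was -0.09.

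Of the catalytic core, 3 of 6 genes fell and all 6 lay lower in every SRFHKO heart than in every control heart. Ndufv1 encodes the subunit that binds NADH and holds the flavin. Its level, given throughout as log2 of the scaled signal plus 2, was 12.42, 12.32 and 12.48 in the control hearts and 12.14, 11.94 and 11.97 in the SRFHKO hearts. It fell by 0.39 (SE 0.08), which is 1.31-fold, with a limma adjusted p of 0.019. All 3 mutant hearts were below the lowest control, and the gap was narrowest between control 2 and mutant 1. The other probe sets of Ndufv1 gave -0.27 each, not past the threshold (limma adjusted p = 0.079 and 0.087 over all probe sets).

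Ndufs7 encodes an iron-sulfur subunit next to the ubiquinone site, the last cluster of the chain. It read 12.58, 12.38 and 12.73 in control and 12.31, 11.94 and 11.98 in SRFHKO hearts. Mutant 1 was close to the lowest control, and the other two lay well below. The gene fell by 0.49 ± 0.11 (log2, SE), or 1.40-fold, with a limma adjusted p of 0.029, and its other probe set differed by -0.42. For Ndufv2, an iron-sulfur subunit of the NADH-binding end, the values were 12.46, 12.47 and 12.60 against 12.23, 12.15 and 12.21, a fall of 0.31 ± 0.08, limma adjusted p = 0.045. The spread within each group was smaller than the step between them. The other probe sets of Ndufv2 gave -0.37 and -0.17 (limma adjusted p = 0.040 and 0.33 over all probe sets).

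The remaining core genes did not pass the test. Ndufs1, the large iron-sulfur subunit, differed by -0.27 ± 0.09 (limma adjusted p = 0.099). Ndufs3 and Ndufs8, both of the part that leads to ubiquinone, had log2 differences of -0.27 and -0.31. For Ndufs8 the choice of probe set mattered: a pair of _x_at probe sets with nearly the same mean gave -0.64 and -0.57, past the threshold over all probe sets (limma adjusted p = 0.026 and 0.023).

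Among the accessory subunits of the Ndufs and Ndufv series, Ndufv3, a small subunit of the NADH-binding end, fell. Control hearts gave 12.76, 12.75 and 12.91 and SRFHKO hearts 12.43, 12.18 and 12.29, a difference of -0.50 ± 0.10 (limma adjusted p = 0.010), or 1.42-fold lower. No mutant heart came within the range of the controls. Ndufs4, which stabilises the NADH-binding end, differed by -0.26 and Ndufs5, on the intermembrane side, by -0.20, neither past the threshold, although for both the groups did not overlap.

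Of the 12 measured genes of the Ndufa series 3 fell, and all 12 differences were below 0. Ndufa6 is a matrix-side subunit of the LYR family, which holds a mitochondrial acyl carrier protein. In control hearts it stood at 11.82, 11.73 and 11.82 and in SRFHKO hearts at 11.52, 11.46 and 11.46. It fell by 0.31 ± 0.08 (log2, SE), a 1.24-fold change with a limma adjusted p of 0.047. Both groups were tight, with no overlap.

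Ndufa9, an accessory subunit near the ubiquinone site, read 12.07, 12.20 and 12.12 in control and 11.77, 11.83 and 11.92 in SRFHKO hearts, a fall of 0.29 ± 0.07 with a limma adjusted p of 0.041. Its pooled SD within groups was 0.056, the lowest of the 32 genes. Ndufa10, a kinase-related subunit of the membrane arm, came next by p, with -0.36 ± 0.10 (limma adjusted p = 0.061). The highest difference in this series was that of Ndufa3, a small membrane subunit, at -0.12. Ndufa4, once counted in complex I and now assigned to cytochrome c oxidase, differed by -0.35.

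The rest of the Ndufa series lay between these values without passing. Ndufa13, a membrane arm subunit also known as GRIM-19, had a wide spread, at 13.08, 12.78 and 13.36 in control and 12.96, 12.44 and 12.51 in SRFHKO hearts. Its difference of -0.44 was among the lowest, but the groups overlapped. Ndufa1, Ndufa2, Ndufa5, Ndufa7 and Ndufa8 had log2 differences of -0.23, -0.17, -0.23, -0.30 and -0.28, and of these the groups overlapped for Ndufa2.

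Ndufa12, an accessory subunit of the NADH-binding end related to an assembly factor, had the lowest difference of all members, but its probe sets disagreed. By its brightest probe set the control hearts stood at 12.63, 13.10 and 12.87 and the SRFHKO hearts at 11.70, 11.80 and 11.82. That is a fall of 1.10 ± 0.20, or 2.14-fold (limma adjusted p = 0.0088), with no overlap between groups. The other _x_at probe set gave a log2 difference of -0.86, and the _s_at probe set gave -0.10, with overlapping hearts and an adjusted p of 0.64 over all probe sets in limma. The _x_at suffix is the platform's mark for probes that can match other transcripts, so the size of the Ndufa12 change is uncertain. Ndufa3 was the other member read by such a probe set.

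**Figure D1:**
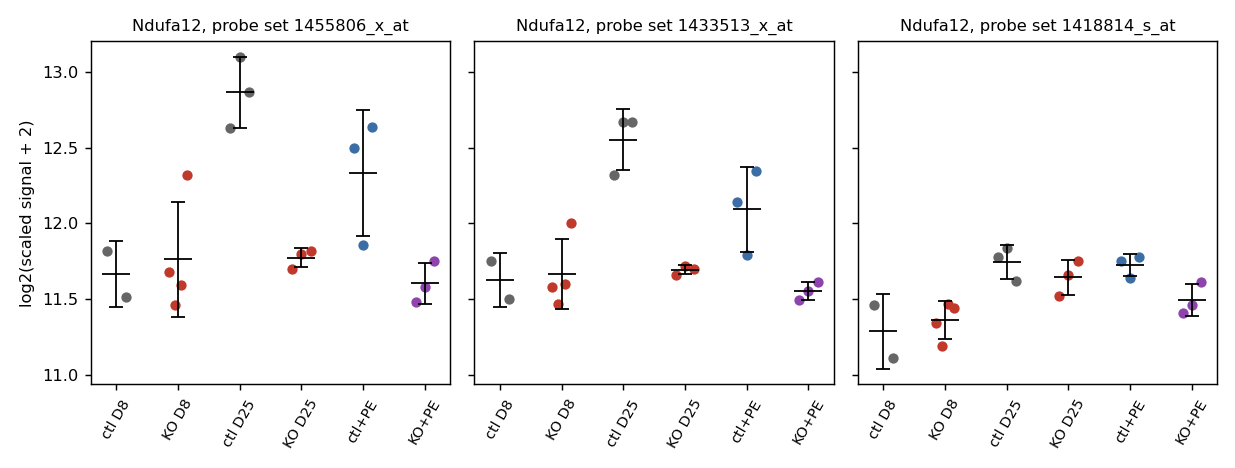
Level of Ndufa12, log2(scaled signal + 2), in each of the 18 hearts by each of its 3 probe sets, with the group mean and SD as bar and whiskers. At day 25 without PE the SRFHKO hearts lie far below the control hearts in the first and second panels (differences of -1.10 and -0.86), and overlap them in the third (-0.10).

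None of the 9 measured genes of the Ndufb series, subunits of the membrane arm, and neither of the Ndufc genes passed the test at day 25 without PE by its brightest probe set. The lowest of these was Ndufb7, an intermembrane-side subunit, at -0.37 ± 0.11 (limma adjusted p = 0.093), and Ndufb11 and Ndufb9 had differences of -0.34 and -0.28. Ndufb2, Ndufb3, Ndufb5, Ndufb8 and Ndufb10 followed, from -0.27 for Ndufb2 to -0.11 for Ndufb5. Of the Ndufc genes, which join the membrane arm, Ndufc1 differed by -0.31 and Ndufc2 by -0.03. By a dimmer probe set of their own, Ndufc1 and Ndufb2 did pass over all probe sets, at -0.40 and -0.38 (limma adjusted p = 0.041 and 0.036). The only member above 0 was Ndufb6, at 0.13 ± 0.12 (95% interval -0.12 to 0.39). Its control hearts stood at 11.27, 11.67 and 11.26 and its SRFHKO hearts at 11.35, 11.66 and 11.59, overlapping through 1 high control, and its other probe set gave -0.07. Of the 19 genes with several probe sets above the limit, 3 had probe sets of opposite sign, Ndufb6, Ndufb8 and Ndufc2.

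**Figure D2:**
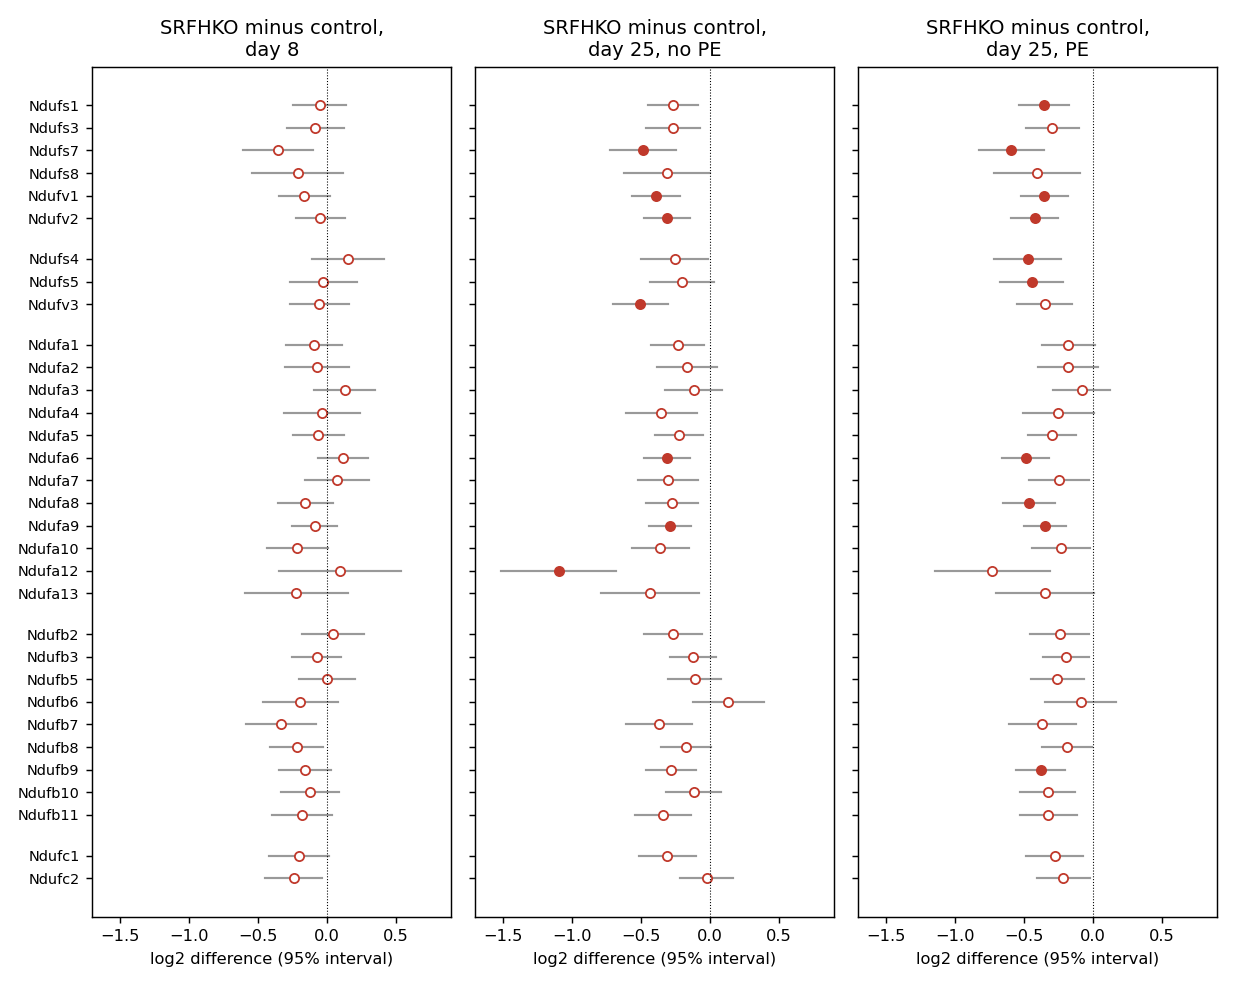
Log2 difference, SRFHKO minus control, with its 95% interval for each of the 32 genes, in panels for day 8, day 25 and day 25 under PE, ordered by role (core, other Ndufs and Ndufv, Ndufa, Ndufb, Ndufc). Filled points passed the limma threshold (0, 7 and 10 genes), and at day 25 all points but Ndufb6 without PE lie below 0 on scaled signals; on unscaled signals the median without PE is 0.13.

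These calls rested on few hearts and on the scaling of the arrays. The count of 7 became 2 without control heart 1, 4 without control heart 2 and 1 without control heart 3, and it was 1 without SRFHKO heart 2 and 1 without SRFHKO heart 3; Ndufa12 passed in each of these. With array brightness or the Gapdh ratio as a covariate it became 0, with medians of -0.20 in both cases; the part of brightness and RNA integrity in the result was not tested further.

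With PE at day 25, in hearts that share no animal with the groups above, the difference between genotypes ran the same way. All 32 differences were below 0, against 50.6% of all genes, and the median was -0.33 against 0.00 over all genes, moving to -0.02 on unscaled signals, where that of all genes was 0.29. The genes that fell numbered 10, 4 of them core subunits, and none rose, beside 0.943% of all genes called lower and 0.713% called higher. SRFHKO hearts lay below control hearts without overlap for 28 genes, against 10.5% of all genes, and higher for none, against 9.62%. Of the 365 other genes at least as bright as the dimmest member, 7.12% were called lower, 153 lay lower without overlap, 283 were below 0 and the median was -0.16. Of these 10, 5 were also among the 7 that fell without PE: Ndufs7, Ndufv1, Ndufv2, Ndufa6 and Ndufa9.

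Among the core genes, Ndufs7 stood at 12.49, 12.28 and 12.60 in control hearts with PE and at 11.81, 11.75 and 12.03 in SRFHKO hearts with PE. It fell by 0.59 ± 0.11 (limma adjusted p = 0.012), or 1.51-fold, the largest fall among the 10 genes that passed. For Ndufv2 the control hearts gave 12.41, 12.38 and 12.51 and the mutant hearts 11.98, 12.00 and 12.05. Its fall was 0.42 ± 0.08 (limma adjusted p = 0.011), with the mutant hearts within a narrow band below every control.

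Ndufv1 read 12.27, 12.11 and 12.26 in control and 11.79, 11.84 and 11.94 in SRFHKO hearts, a fall of 0.35 ± 0.08 (limma adjusted p = 0.035). Ndufs1 read 11.95, 11.78 and 11.93 against 11.45, 11.54 and 11.61, also a fall of 0.35 ± 0.09 (limma adjusted p = 0.043). In both genes control heart 2 was the lowest control and still above every mutant heart. The other probe sets of Ndufv1 gave -0.37 and -0.30 with PE (limma adjusted p = 0.028 and 0.091 over all probe sets). Ndufs3 and Ndufs8 differed by -0.29 and -0.41 without passing, with no overlap between groups.

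Ndufa6 had the smallest adjusted p of all members. Control hearts with PE gave 11.83, 11.60 and 11.64, and SRFHKO hearts with PE gave 11.09, 11.21 and 11.31. It fell by 0.49 ± 0.08 (limma adjusted p = 0.0047), 1.40-fold, and kept its call in all 6 fits with 1 heart of the contrast left out. Ndufa8, a subunit of the intermembrane side, stood at 12.31, 12.29 and 12.31 in control and at 11.75, 11.83 and 11.94 in mutant hearts, a fall of 0.46 ± 0.09 (limma adjusted p = 0.013).

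Control levels of Ndufa8 were nearly identical and all mutant hearts lay clearly below them. Ndufa9 gave 11.94, 11.95 and 11.94 in control and 11.56, 11.64 and 11.59 in SRFHKO hearts with PE, a fall of 0.35 ± 0.07 (limma adjusted p = 0.019). Ndufb9, a LYR-family subunit of the membrane arm, read 12.84, 12.75 and 12.95 against 12.36, 12.45 and 12.60, a fall of 0.38 ± 0.09 (limma adjusted p = 0.028). It was the only Ndufb gene to pass, and its other probe set gave -0.28 (limma adjusted p = 0.087 over all probe sets). The accessory genes Ndufs4 and Ndufs5 fell by 0.47 ± 0.12 and 0.45 ± 0.11 (both limma adjusted p = 0.045). Dimmer probe sets of Ndufs4 gave -0.29 and -0.68, not past the threshold (limma adjusted p = 0.32 and 0.25 over all probe sets). Ndufa5 did not pass by its brightest probe set, at -0.30, but did by a dimmer one, at -0.40 (limma adjusted p = 0.043 over all probe sets).

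Several genes that passed without PE did not pass here. Ndufv3 differed by -0.35 ± 0.10 (limma adjusted p = 0.071), and Ndufa12 by -0.73 ± 0.20 (limma adjusted p = 0.071), while its _s_at probe set differed by -0.23. The smallest difference was that of Ndufa3, at -0.08, followed by Ndufb6, at -0.09. In the Ndufb series Ndufb7, Ndufb10 and Ndufb11 differed by -0.37, -0.33 and -0.32, each with no overlap between groups. Ndufb2, Ndufb8 and Ndufs8 had probe sets of opposite sign, each through a probe set far dimmer than the one used. For Ndufs8 the differences ran from -0.68 to 0.54 over its 6 probe sets, and for Ndufb8 they were -0.19 and 0.82. The count of 10 became 2 without control heart 1, 1 without control heart 3, 3 without SRFHKO heart 1 and 1 without SRFHKO heart 2, all of the PE groups. With array brightness as a covariate 1 gene passed, and with the Gapdh ratio 5 passed.

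**Figure D3:**
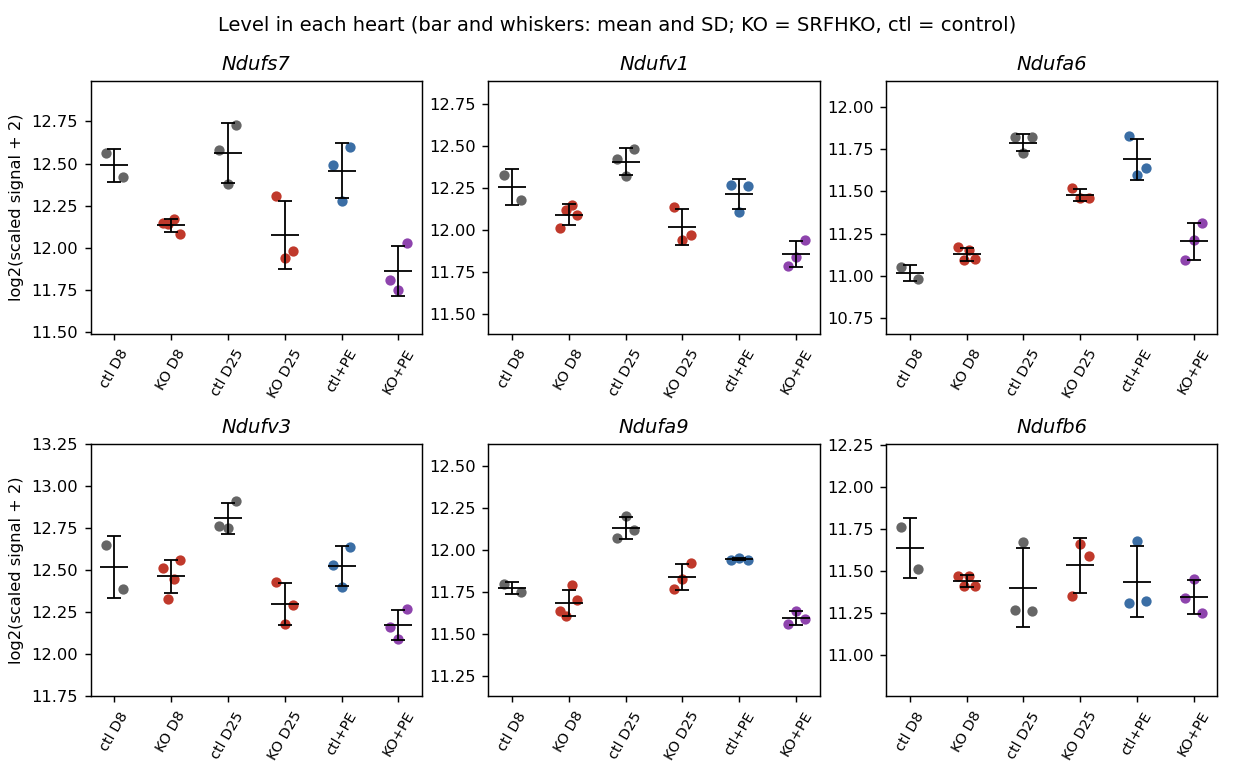
Level of 6 subunit genes, log2(scaled signal + 2), in each of the 18 hearts, with group mean and SD as bar and whiskers. The day 25 SRFHKO hearts lie below the matched controls, with and without PE, for all but Ndufb6 on scaled signals; on unscaled signals Ndufv1, Ndufa6 and Ndufa9 turned to differences of 0.023, 0.10 and 0.13 without PE.

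The promoters of the genes that fell at day 25 without PE were read for letters of factors known from mitochondrial and muscle genes. Sequences from RefSeq (GRCm38.p6), the 250 bases before the annotated start, were held for 29 of the 32 measured genes and for all 7 of these. The promoters of 3 genes that carry a match are shown because Ndufa6 and Ndufv2 fell with and without PE and Ndufa12 had the lowest difference. They are Ndufa6 (chr15:82354292-82354541, minus strand), Ndufv2 (chr17:66101560-66101809, minus strand) and Ndufa12 (chr10:94198785-94199034, plus strand), written 5′ to 3′ along the gene. Capitals mark the NRF1 core CGCATGC in Ndufa6, 83 bases before the start, and the Sp1 letters GGGCGG, on either strand, in Ndufv2 (159 and 100 bases before) and Ndufa12 (42 and 11 bases before).
Ndufa6 promoter: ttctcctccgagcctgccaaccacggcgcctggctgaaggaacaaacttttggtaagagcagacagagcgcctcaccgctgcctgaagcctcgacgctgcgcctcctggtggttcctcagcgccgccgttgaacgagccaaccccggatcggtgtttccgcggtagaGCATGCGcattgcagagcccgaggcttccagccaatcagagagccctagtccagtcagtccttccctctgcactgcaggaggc
Ndufv2 promoter: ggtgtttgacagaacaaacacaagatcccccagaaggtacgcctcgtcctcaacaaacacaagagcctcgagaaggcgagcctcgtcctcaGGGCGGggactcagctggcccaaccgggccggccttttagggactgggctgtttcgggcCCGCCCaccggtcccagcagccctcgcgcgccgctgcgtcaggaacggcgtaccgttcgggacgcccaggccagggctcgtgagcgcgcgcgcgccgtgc
Ndufa12 promoter: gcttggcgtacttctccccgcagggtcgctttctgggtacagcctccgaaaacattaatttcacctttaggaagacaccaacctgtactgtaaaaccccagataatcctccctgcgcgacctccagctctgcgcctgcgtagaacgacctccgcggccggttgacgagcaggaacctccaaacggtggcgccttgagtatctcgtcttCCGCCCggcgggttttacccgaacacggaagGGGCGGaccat

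The NRF1 core was found for 2 of the 29 subunit genes (6.9%) and for 3.43% of 27025 genes with promoters of the same length. A gene was counted if the window before any of its listed starts held the letters. For the ETS letters CCGGAAG the shares were 10.3% and 7.83%, for the estrogen-related receptor letters AAGGTCA 6.9% and 4.7%, and for the Sp1 letters 41.4% and 35.4%, each searched on both strands. The CArG box was found for none of the 29 and for 1.62% of all genes with a promoter held. Of the 7 genes that fell without PE, 1 held the NRF1 core, 3 the Sp1 letters and none the ETS, receptor or CArG letters. A match describes letters in this window and no more.

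At day 8 no subunit gene passed the test in limma, beside 0.0159% of all genes called lower and 0.0476% called higher; 4 genes had an unadjusted p under 0.05, all lower, and no alternative setting called any. The difference was below 0 for 26 of 32 genes, against 51.9% of all genes, with a median of -0.09 against -0.01, and the median turned to 0.04 with the Gapdh ratio as a covariate. SRFHKO hearts lay lower without overlap for 7 genes and higher for 1, against 9.77% and 9% of all genes, in a design with only 2 control hearts. Of the 365 other bright genes 233 were below 0, with a median of -0.05. Among these 60 lay lower and 23 higher without overlap.

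Ndufs7 had the lowest difference at day 8 and the smallest p. Its control hearts stood at 12.56 and 12.42 and its mutant hearts at 12.15, 12.14, 12.17 and 12.08, a difference of -0.36 ± 0.12 (limma adjusted p = 0.38). All 4 mutant hearts were below both controls, but the other probe set of Ndufs7 gave -0.03. Ndufb7 read 12.14 and 12.00 against 11.74, 11.76, 11.79 and 11.67 (-0.34 ± 0.12, limma adjusted p = 0.42), and Ndufc2, a subunit of the membrane arm, 12.07 and 11.78 against 11.68, 11.59, 11.73 and 11.73 (-0.24 ± 0.10, limma adjusted p = 0.46). Neither of these overlapped, but the other probe set of Ndufb7 gave 0.04, and 7 of the 19 genes with several probe sets had opposite signs among them at day 8. The highest difference was that of Ndufs4, at 0.15.

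The difference between genotypes at day 25 minus that at day 8 was tested directly for each gene. None passed in limma, and 0% of the 12616 genes did; 6 subunit genes had an unadjusted p under 0.05, and 28 of 32 lay below 0, against 52.7% of all genes. The median was -0.16 against -0.03, turning to 0.19 with scaling to the median and 0.24 without scaling. Ndufa12 had the lowest value, -1.19 ± 0.29 (limma adjusted p = 0.12), followed by Ndufv3 at -0.45 ± 0.14 and Ndufa6 at -0.43 ± 0.12 (limma adjusted p = 0.23 and 0.18). A larger fall at day 25 than at day 8 was therefore not shown for any subunit gene.

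PE was compared with no PE within each genotype at day 25. These comparisons share the untreated hearts with the genotype comparison above, so their values are not independent of it. In control hearts no subunit gene passed in limma, beside 0.00793% of all genes called lower and 0.0317% called higher, and 10 had an unadjusted p under 0.05, all lower. Differences were below 0 for 28 genes, against 54.9% of all genes, and the median was -0.14 against -0.03, turning to 0.02 with scaling to the median and 0.05 without scaling, where all genes stood at 0.12 and 0.15. Hearts with PE lay lower without overlap for 13 genes, against 8.67% of all genes, and higher for none, against 5.94%. Of the 365 other bright genes 218 were below 0, with a median of -0.05. Among these 61 lay lower and 32 higher without overlap.

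By p, Ndufa10 came first in the control hearts, at 12.08, 12.03 and 11.93 without PE and 11.75, 11.57 and 11.64 with PE (-0.36 ± 0.10, limma adjusted p = 0.20). Ndufa7, a subunit of the matrix arm, read 12.02, 12.11 and 12.30 without and 11.81, 11.82 and 11.88 with PE, a difference of -0.31. Ndufv3 differed by -0.28, from 12.76, 12.75 and 12.91 to 12.53, 12.40 and 12.64. In all 3 genes every heart with PE was below every heart without. The lowest value was that of Ndufa12, at -0.53 with overlapping hearts, and the highest that of Ndufb6, at 0.03.

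In SRFHKO hearts PE gave differences below 0 for all 32 genes, against 51% of all genes, with a median of -0.19 against -0.01. The median was -0.09 with quantile normalization, -0.13 with scaling to the median and -0.11 without scaling. Of the 365 other bright genes 268 were below 0 and 110 lay lower without overlap, with a median of -0.13. None passed in limma, beside 0.103% called lower and 0.159% called higher; 14 had an unadjusted p under 0.05 and 15 lay lower without overlap, against 8.42% of all genes, and none higher, against 8.62%. Ndufb10, an intermembrane-side subunit, stood at 12.50, 12.23 and 12.31 without and at 11.96, 11.98 and 12.11 with PE, a difference of -0.34 ± 0.09 (limma adjusted p = 0.14). Ndufs4 went from 11.18, 11.11 and 11.15 to 10.58, 10.75 and 10.91 (-0.40 ± 0.12, limma adjusted p = 0.16). Both left a gap between the groups, as did Ndufa6, at -0.28, while Ndufa2 had the value nearest 0, at -0.01.

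The interaction, the PE effect in SRFHKO minus that in control hearts, passed for none of the 32 genes in limma, and none had an unadjusted p under 0.05. Over all genes 0.00793% passed below and 0.0159% above 0. The median was -0.04 against 0.03 over all genes, with 19 of 32 below 0 against 46.8%. With scaling to the median these medians were -0.14 and -0.07, and without scaling -0.14 and -0.07. The values ran from -0.24 for Ndufs5 to 0.37 for Ndufa12. A different response to PE in the mutants was thus not shown for any member, with 95% intervals such as -0.57 to 0.08 for Ndufs5.

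The members were also summarised heart by heart. Taking each gene relative to the mean of the untreated controls of its day, the median over the 32 genes was -0.24, -0.34 and -0.25 in the SRFHKO hearts of day 25 and -0.14, -0.19 and -0.09 in the control hearts with PE. It was -0.53, -0.49 and -0.37 in the SRFHKO hearts with PE. The last group lay lowest, with 31 or all 32 genes below the controls in each heart, while the single control hearts of day 25 ranged from -0.04 to 0.07. The other bright genes shifted the same way by less. Their medians were -0.04, -0.15 and -0.07 in SRFHKO hearts and -0.06, -0.08 and 0.01 in control hearts with PE. In SRFHKO hearts with PE they were -0.18, -0.24 and -0.15. A shift in this direction was thus not particular to the subunit genes. These medians are a description of scaled signals.

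**Figure D4:**
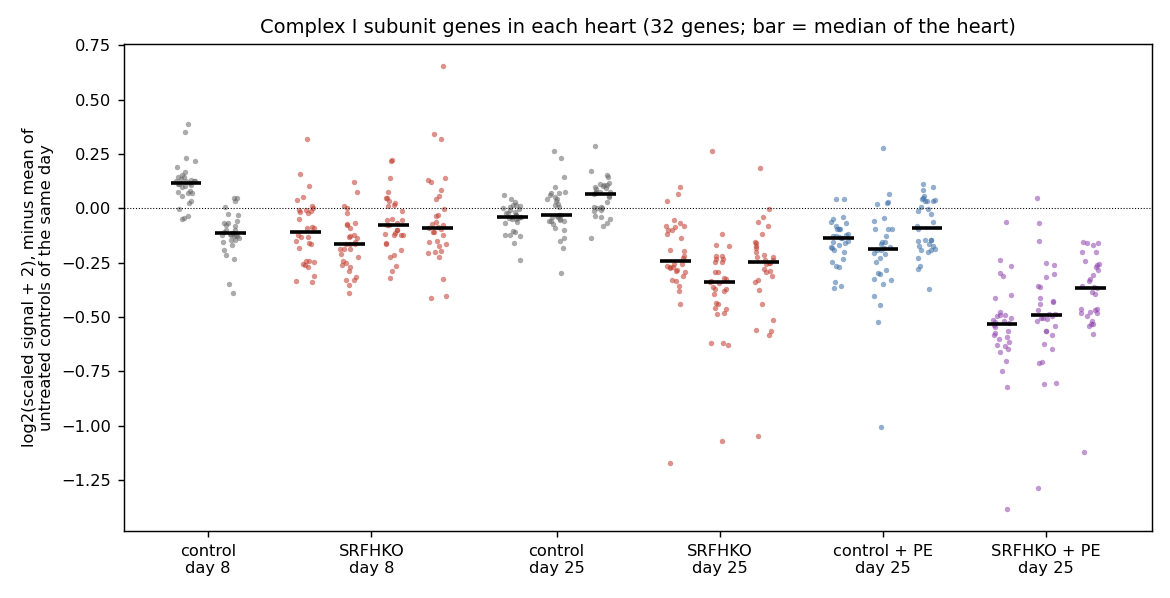
Each point is 1 of 32 subunit genes in 1 heart, as log2(scaled signal + 2) minus the mean of the untreated controls of the same day, and the bar is the median of that heart. Medians run from -0.04 to 0.07 in control hearts of day 25 and from -0.34 to -0.24 in SRFHKO hearts. In SRFHKO hearts with PE they run from -0.53 to -0.37. Medians of the other bright genes, not drawn, run from -0.15 to -0.04 in SRFHKO hearts and from -0.24 to -0.15 with PE. On unscaled signals the median genotype difference of the subunit genes without PE is 0.13.

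The members were not equally alike across hearts. After the mean of each day was taken off, the correlation of a gene with the mean of the other members over 18 arrays was highest for Ndufb9 (r = 0.97) and Ndufv2 (r = 0.96) and lowest for Ndufb6 (r = 0.04), with Ndufa2 and Ndufa3 at 0.52 and 0.61. The genes outside the list closest to their mean were Cs (citrate synthase, r = 0.98), Atp5c1 (an ATP synthase subunit, 0.97), Uqcrfs1 (the Rieske protein of complex III, 0.96), Sdhb (an iron-sulfur subunit of complex II, 0.96) and C1qbp (a mitochondrial matrix protein, 0.95). Points share the array and its scaling, and these values are descriptive.

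Other genes around the enzyme were read from lists set by function. Of 19 assembly factors, which build complex I without staying in it, Foxred1 and Ecsit fell without PE, by 0.76 ± 0.14 and 0.56 ± 0.14 (limma adjusted p = 0.0090 and 0.033). With PE only Ndufaf1 fell, by 0.49 ± 0.11 (limma adjusted p = 0.024). The list's medians were -0.08 and -0.26, with 8 and 3 of 19 genes above 0.

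In complex III, 2 of 9 subunits fell without PE, Uqcrc1 by 0.45 and Uqcr11 by 0.44 (limma adjusted p = 0.014 and 0.010), and 3 of 9 with PE, Uqcrfs1, Uqcrc1 and Cyc1, by 0.46, 0.43 and 0.40 (limma adjusted p = 0.012, 0.019 and 0.047). All 9 lay below 0 in both, with medians of -0.26 and -0.32. In complex II, Sdhb fell by 0.44 without PE (limma adjusted p = 0.033), and none of 4 passed with PE. The medians were -0.15 and -0.33.

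Complex IV, which passes electrons to oxygen, went both ways without PE. Of 13 measured subunits Cox7a2l fell by 0.35 and Cox8a rose by 0.62 ± 0.10 (limma adjusted p = 0.042 and 0.0038), and none passed with PE, with medians of -0.26 and -0.24. Of 15 measured ATP synthase subunits, Atp5g1 fell by 0.41 without PE (limma adjusted p = 0.032). With PE, Atp5g1 and Atp5a1 fell by 0.42 and 0.33 (limma adjusted p = 0.037 and 0.025), and the medians were -0.23 and -0.28.

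Among 16 genes that supply or use NADH and ubiquinol, Got2, of the malate-aspartate shuttle, fell by 0.48 and Coq10b, a coenzyme Q binding protein, rose by 0.78 without PE (limma adjusted p = 0.018 and 0.019). With PE, Got1 of the same shuttle and Etfb, the beta subunit of the electron transfer flavoprotein, fell by 0.59 and 0.53 (limma adjusted p = 0.013 for each). The medians were -0.14 and -0.30. Among 15 regulators of mitochondrial biogenesis none passed without PE, and with PE Ppara, a receptor that activates fatty acid oxidation genes, and the coactivator gene Ppargc1b fell by 1.23 ± 0.22 and 1.08 ± 0.19 (limma adjusted p = 0.0088 and 0.0070).

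The regulators had medians of -0.17 and -0.09. Of 12 measured genes for the outer membrane and protein import, Vdac1 and Timm44 fell without PE, by 0.44 and 0.49 (limma adjusted p = 0.034 and 0.038), and Timm23 with PE, by 0.44 (limma adjusted p = 0.012). Medians were -0.06 and -0.24. At day 8, and for PE within each genotype, no gene of these 8 lists passed.

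Cardiomyocyte markers were checked beside the subunit genes. Of 16, Tnnc1 and Myl3, genes of the thin and thick filament, fell without PE, by 0.62 ± 0.09 and 0.73 ± 0.11 (limma adjusted p = 0.0022 and 0.0034), and again with PE, by 0.73 and 0.81 (limma adjusted p = 0.00045 and 0.0010). The list's medians were -0.25 and -0.26. The summed scaled signal of the 16 ran from 152606 to 170986 in the 3 control hearts of day 25 and from 122607 to 143649 in the 3 mutants, and 137632 to 163882 against 121737 to 127318 with PE, without overlap in either. Their part in the result was not tested.

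Markers of other cell types also differed in places. The summed signal of 11 endothelial markers lay at 3699 to 4281 in controls against 2965 to 3243 in mutants without PE, where Cldn5, a tight junction gene, fell by 0.81 (limma adjusted p = 0.031), and the groups overlapped with PE. The sums of 12 macrophage and 5 smooth muscle markers overlapped without PE and were lower in SRFHKO hearts with PE. They stood at 3452 to 3831 against 3865 to 4439 and at 2287 to 2978 against 3117 to 4098. With PE 10 of the 12 macrophage markers lay below 0. Of the 5 smooth muscle markers 3 lay above 0 (median 0.04), and the lowest was Acta2, at -0.58. Of 5 brown adipocyte markers 3 were measured. Their sums were higher in SRFHKO hearts, at 669 to 710 against 495 to 618 without PE. With PE they were 596 to 789 against 495 to 585, and all 3 markers lay above 0. Without PE, though, 2 of the 3 lay below 0 (median -0.30), and only Cidea lay above, at 0.58. Of 8 skeletal muscle markers 2 were measured. Their sums without PE were 26 to 39 in SRFHKO and 44 to 60 in control hearts. Neither marker had an unadjusted p under 0.05 in limma for this difference. The sums were also apart at day 8, at 15 to 32 against 33 to 37. In control hearts they were 24 to 42 with PE. Sums of 11 fibroblast, 4 atrial, 3 adipocyte and 2 erythroid markers overlapped between genotypes at day 25. Between PE and no PE, however, the fibroblast sums were barely apart in control hearts, at 10694 to 11054 against 7177 to 10674. In these hearts the list's median was 0.27, but 5 of the 11 markers lay below 0 and none passed. In SRFHKO hearts the median was 0.33, and 3 of the 11 lay below 0, the lowest Fbln1 at -0.52. Postn, a matrix protein gene, rose there by 1.83 ± 0.34 (limma adjusted p = 0.025). At day 8 the fibroblast sums were 6866 to 9885 in SRFHKO and 10153 to 14581 in control hearts. The smooth muscle sums at day 8 were 1615 to 1774 against 2275 to 2556, but 3 of the 5 markers lay above 0. The median of these 5 differences was 0.05, and the lowest was that of Acta2, at -0.81. The part of these cell types in the result was not tested.

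The scaling of the arrays set the level of every value above. Relative to the median of all genes, that of the 32 members without PE was -0.23 with the trimmed mean, -0.23 with scaling to the median, -0.22 without scaling and -0.15 with quantile normalization, and with PE it was -0.32, -0.32, -0.31 and -0.16. Scaling to the median moved the median of all genes by 0.22 without and 0.12 with PE, and leaving signals unscaled by 0.40 and 0.30. The calls over all genes moved with it: 161 higher and 152 lower without PE became 811 and 53 with scaling to the median and 1039 and 21 unscaled, and 90 and 119 with PE became 120 and 42 and 106 and 17. Under these settings 1 subunit gene passed without PE, Ndufa12 in each case, while with PE 1 passed with scaling to the median, Ndufs7, and none unscaled; with quantile normalization 3 passed in each comparison.

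**Figure D5:**
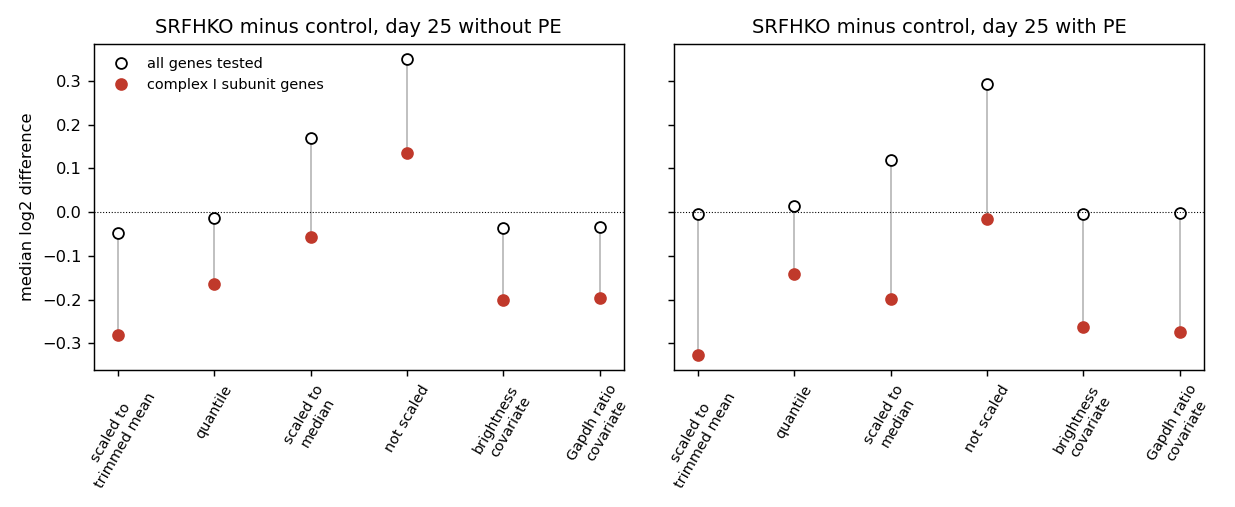
Median log2 difference, SRFHKO minus control, of the 32 subunit genes (filled) and of all genes tested (open) under 6 ways of scaling or adjusting the arrays, at day 25 without and with PE. The filled points lie below the open ones in each case, while the sign of the subunit median turns to 0.13 on unscaled signals without PE.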

How the data were processed

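Total RNA from 18 mouse ventricles was hybridised to Affymetrix arrays, 1 heart per array. The deposited table gives 1 intensity per probe set and array, on a linear scale, made with GCOS per the submitters' processing notes; its version, algorithm and scaling were not given in the sources used here. Of 45101 probe sets, 64 controls were left out. Arrays were scaled to a common 2% trimmed mean, then log2(signal + 2) was taken. Genes were named from the platform annotation, each by its 1-symbol probe set of highest mean, and those under the 40th percentile of mean signal were left out, leaving 12616. One fit of all 6 groups in limma 3.58.1 (R 4.3.3), with an intensity trend and Benjamini-Hochberg adjustment, gave 7 contrasts; its test was tested on simulated data. The members and lists were chosen with earlier results of these data known. Hearts were named by values in full for up to 8 members past the threshold by smallest p, or the 3 of smallest p; in each pathway list up to 4 that passed. Alternatives were 3 scalings, 2 pseudocounts, 2 filters, 2 probe set rules, the groups compared alone, no trend, brightness or the Gapdh 3′ to 5′ ratio as a covariate, the replicate number as a block and each heart left out. The number of arrays limits the precision.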

Additional observations from a re-analysis of the deposited data

Results flagged for a closer look

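In 3 genes every heart of a group lay on one side of the mean of its reference group in one comparison and on the other side in its counterpart. Ndufa6 lay above 0 at day 8, at 0.12 with all 4 SRFHKO hearts above both controls, and below 0 at day 25 without PE, at -0.31. The difference between these, -0.43 ± 0.12, had a limma adjusted p of 0.18 (0.0019 unadjusted). Ndufa3 did the same with smaller values, 0.13 and -0.12 (difference -0.25 ± 0.14, limma adjusted p = 0.54), although its groups overlapped at both days. Ndufa8 differed with PE by 0.032 in control and by -0.15 in SRFHKO hearts (interaction -0.19 ± 0.13, limma adjusted p = 0.79). Here the control hearts with PE lay only 0.02 to 0.04 above the mean of those without. None of these 3 differences between comparisons passed the test. The share of all genes that meet this rule was not counted, so the count of 3 is no result about the members.

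In the SRFHKO hearts of day 8, replicate 2 stood apart for Ndufb2, a membrane arm subunit, at 10.85, while the other 3 hearts stood at 11.09, 11.06 and 11.10. This was 1 of 32 such groups of 4 hearts, and chance sets apart about 1 in 20.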

How the results depend on the processing

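The number of subunit genes past the threshold at day 25 was 7 without PE and 10 with PE. Quantile normalization gave 3 and 3, scaling to the median 1 and 1, no scaling 1 and 0, no filter 3 and 4, a fit of only the groups compared 1 and 3, no intensity trend 2 and 1, array brightness as a covariate 0 and 1, and the Gapdh ratio as a covariate 0 and 5. Both pseudocounts, the stricter filter and both probe set rules gave 7 to 8 and 9 to 10. With unique probe sets preferred the count without PE was again 7, but Ndufc1 passed and Ndufv1 did not. The adjustment over all probe sets, used above for the other probe sets of a gene, differs from that over genes. Under it Ndufv2 and Ndufa6 did not pass without PE by their brightest probe sets (limma adjusted p = 0.052 and 0.054). With PE the same held for Ndufs1, Ndufs4 and Ndufs5 (limma adjusted p = 0.057, 0.056 and 0.057). Leaving out 1 heart at a time gave 1 to 7 and 1 to 9. All called genes were lower in SRFHKO hearts in every setting. On unscaled signals 4 genes called without PE turned to differences above 0, Ndufv1 at 0.023, Ndufv2 at 0.10, Ndufa6 at 0.10 and Ndufa9 at 0.13. Scaling multiplies each array by 1 factor, and the unscaled arrays of SRFHKO hearts were brighter. Leaving it out therefore raises the differences of all bright genes by nearly the same amount, and is no separate change of these 4 genes. The other 5 contrasts called 0 subunit genes in every setting. The replicate numbers do not pair the hearts: same-numbered hearts had deviations from their group means correlated at -0.086 to 0.090. With the replicate number as a block 8 and 12 genes passed. Signals of all 32 genes were far above the limit for low values.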
